A study of Mus musculus with 6 samples.

Results

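The genes described here make up the amino acid stress programme of the transcription factor ATF4 in mouse bone marrow monocytes kept with or without interferon beta (IFN-beta). The programme was taken as 37 named genes, found on the arrays by the gene name of each non-control probe, which gave 62 of the 56605 probes and 37 of the 37325 gene names. By role they comprised 12 stress regulators, 7 serine and one-carbon enzymes, 7 other amino acid enzymes, 9 amino acid transporters and 2 secreted factors. To be tested, a probe had to be called well above background by all arrays of either group or of both, which 52 of the 62 probes and 34 of the 37 genes met. The 3 genes without such a probe were Aldh1l2, Pycr1 and Cth.

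Gene expression was measured on 6 Agilent arrays of 1 colour, each hybridised with cRNA of 1 sample. The cells were monocytes separated magnetically from the marrow of C57BL/6J mice aged 6 to 8 weeks. All 6 samples spent 60 h in M-CSF at 20 ng/mL, the growth factor under which monocytes mature into macrophages. The 3 control samples received no further agent, and the 3 IFN-beta samples also received 100 U of IFN-beta. The labels do not say if the samples of a group stem from different animals or cultures. The p-values then measure only the spread between these samples, which may be technical, and precision is limited by having 3 arrays a group. Levels are the log2 signal of a probe minus the 75th percentile of its array, and a difference is the mean IFN-beta level minus the mean control level with the standard error of the fit (3 samples against 3). Levels of different genes were not set against each other, since each probe has its own brightness.

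ATF4 is the transcription factor of the integrated stress response. Kinases that sense missing amino acids, unfolded protein, double-stranded RNA or lack of haem phosphorylate the initiation factor eIF2, which lowers protein synthesis in general while the Atf4 message is translated more. ATF4 then raises genes for the synthesis and import of amino acids and for charging tRNA, together with regulators such as CHOP and TRIB3 that feed back on the response, and it reaches many of them through a composite CEBP-ATF element.

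The core of that element, TGATGNAA, was searched on both strands of the promoters in the RefSeq table (build GRCm38.p6), which holds 31 of the 37 genes. In the 250 bases before the start of transcription it was found in 7 of the 31 genes (22.6%), against 3.91% of all 27025 genes in the table. After these matches were seen the window was widened by the 50 bases after the start, which gave 9 of 31 (29%), against 4.51% of all genes: Asns, Atf3, Chac1, Nupr1, Pck2, Pycr1, Slc1a4, Slc7a11 and Trib3. The interferon-response pattern, GAAA, any 2 bases and GAAA again, was in 2 of the 31 promoters in either window, those of Ppp1r15a and Vegfa (6.45%, against 3.99% of all genes in the wider window). The endoplasmic reticulum stress pattern, CCAAT, any 9 bases and CCACG, was in 0 of the 31, against 0.137% of all genes in the wider window. It is so rare that 31 promoters cannot show a lack of it. Of the 9 genes with the core, Nupr1 and Slc1a4 did not pass the test and Pycr1 was not tested, and their stretches are left out. Whether the core goes with a rise was not tested. The following stretches hold the core and belong to 5 genes that rose with IFN-beta and to Pck2, which did not pass either. Capitals mark the core, read on either strand, and Slc7a11 has it in both orientations. They lie at chr2:152344028-152344057 (minus strand, Trib3, just after the start), chr2:119351019-119351086 (plus strand, Chac1), chr6:7693210-7693262 (minus strand, Asns), chr1:191183406-191183473 (minus strand, Atf3), chr3:50443623-50443690 (minus strand, Slc7a11) and chr14:55540133-55540200 (plus strand, Pck2) of GRCm38.p6. A match describes the letters and does not show binding.
Trib3: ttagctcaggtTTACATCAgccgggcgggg
Chac1: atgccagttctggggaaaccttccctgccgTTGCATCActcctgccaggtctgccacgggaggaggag
Asns: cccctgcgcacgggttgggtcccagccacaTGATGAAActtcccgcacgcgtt
Atf3: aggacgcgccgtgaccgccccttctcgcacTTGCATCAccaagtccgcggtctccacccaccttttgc
Slc7a11: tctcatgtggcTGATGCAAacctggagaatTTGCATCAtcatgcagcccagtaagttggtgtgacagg
Pck2: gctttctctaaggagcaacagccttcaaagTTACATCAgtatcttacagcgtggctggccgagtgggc

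One of the control arrays, control 3, stood apart from the other controls. Controls 1 and 2 correlated with each other at 0.994 over 19500 genes, the IFN-beta arrays among themselves at 0.989 to 0.993, and control 3 with controls 1 and 2 at 0.956 to 0.957 but with the IFN-beta arrays at 0.964 to 0.966. Signal was also uneven, with a 75th percentile of 549.2 and 528.2 on controls 1 and 2, 305.4 on control 3 and 236.4 to 244.5 on the IFN-beta arrays, and no spot was saturated. The summed level of 16 fibroblast and stroma markers was 9.32 and 9.53 on controls 1 and 2, 1.07 on control 3 and 1.63 to 1.87 on the IFN-beta arrays, and all 16 markers were above background on controls 1 and 2, against 7 on control 3 and 8 to 10 on the IFN-beta arrays. On control 3 the markers not above background were Col3a1, Col6a1, Cxcl12, Dcn, Loxl1, Lum, Pdgfra, Pdgfrb and Postn. The 5 erythroid markers summed to 7.21 to 7.33 on controls 1 and 2, -0.33 on control 3 and 1.02 to 1.47 on the IFN-beta arrays. All 12 monocyte and macrophage markers were above background on each array, with a median level of 4.64 to 4.97 on the controls and 4.62 to 4.73 on the IFN-beta arrays. Their summed level was 9.41 to 9.98 on the controls and 10.258 to 10.295 on the IFN-beta arrays. Among these 12, Ly6c2, a surface protein of classical monocytes, rose by 2.89 ± 0.17 (adjusted p = 8.55e-05) and Fcgr1, an IgG receptor, by 2.20 ± 0.27 (adjusted p = 0.00173). The 3 that fell were Cd14, which binds lipopolysaccharide, by 1.81 ± 0.25 (adjusted p = 0.00267), Mertk, which takes up dead cells, by 1.76 ± 0.33 (adjusted p = 0.0103), and Itgam, an integrin, by 0.72 ± 0.16 (adjusted p = 0.0177); these 5 were named after their values were seen. Over all genes, 11.8% rose and 8.03% fell. The 12 interferon-induced genes taken as a check of the labels all rose (median difference 4.10). The comparison is therefore also given against control 3 alone.

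The ATF4 programme stood higher in the IFN-beta samples. Its genes were chosen with earlier results of these data known, so the values over all genes are only description and no set test was run. Of the 34 genes tested, 21 rose, 0 fell and 13 did not pass the threshold of 0.05 on the limma p adjusted over all 19500 genes. Over all genes, 11.8% rose and 8.03% fell, together 19.8%. At an unadjusted limma p under 0.05, 23 members were higher and 1, Slc38a2, was lower, where all genes gave 21.5% and 14.8%. The median difference of the 34 genes was 0.83, against 0.10 for all genes. The difference was positive for 29 of the 34, and 14 of the 21 that rose did so by at least 2-fold. The IFN-beta and control arrays did not overlap in 23 members that were higher and in 1 that was lower, where all genes gave 23.4% and 16.8%. Trib3 and Ddit3 led, each more than 10-fold higher. The members that rose spanned differences from 0.58 to 3.54. The count of members that rose was 12 when the arrays were scaled to the 7 spike-in probes, which are few (5.97% of all genes), and 11 with no filter on dim probes (3.01% of the genes then tested).

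**Figure D1:**
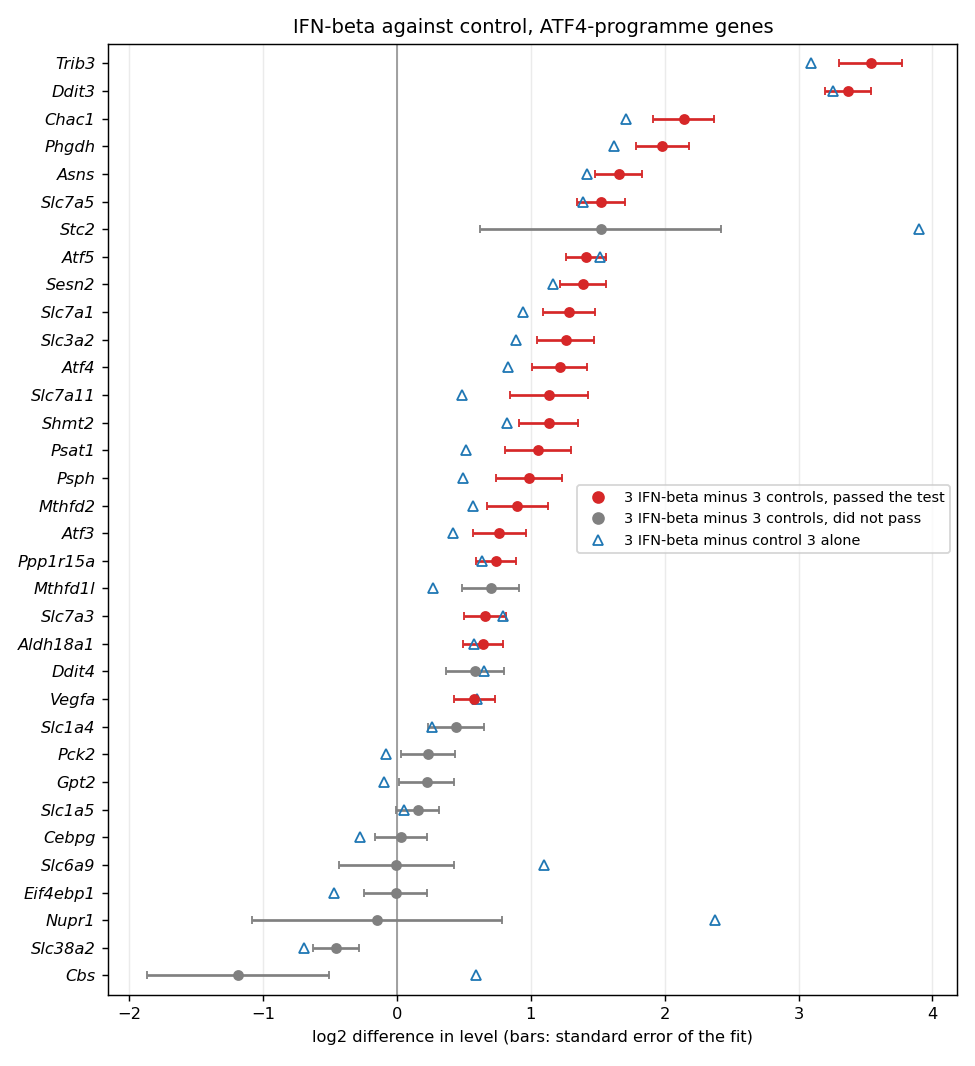
IFN-beta minus control for each of the 34 genes tested, as a log2 difference in level on the horizontal axis; filled points are 3 IFN-beta against 3 control arrays with the standard error of the fit, red where the gene passed the test, and open triangles are the 3 IFN-beta arrays against control 3 alone. Trib3 and Ddit3 lie past 3 by either reference, while Nupr1, Slc6a9, Stc2 and Cbs differ most between the 2 references (Stc2 and Cbs were not well above background on control 3).

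Among the stress regulators 8 of 12 rose and 0 fell, where 11.8% and 8.03% of all genes did, and the median difference was 0.99. Atf4 itself was at 6.76, 6.74 and 7.33 on the controls and 8.12, 8.11 and 8.23 on the IFN-beta arrays. All 3 IFN-beta arrays lay above every control, and control 3 lay nearer to them than controls 1 and 2 did. Atf4 rose by 1.21 ± 0.20 (2.32-fold, adjusted p = 0.00655). Against control 3 alone the difference was 0.83 and did not pass (adjusted p = 0.0581). The probe lies at chr15:80087902-80087961 of mm9, the build in which the array files give positions, and no annotation of that build was used here to place probes within exons.

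Trib3, the pseudokinase that binds ATF4 and restrains it, was at 1.88, 1.89 and 2.55 on the controls and 5.53, 5.50 and 5.90 on the IFN-beta arrays. Every IFN-beta array was far above every control. Its difference was 3.54 ± 0.24 (11.6-fold, adjusted p = 0.000126), the 88th highest of the 19500 genes, and its probe lies at chr2:152163161-152163220 (mm9). Ddit3, which encodes the transcription factor CHOP, was at 0.51, 0.59 and 0.71 on the controls and 3.80, 3.92 and 4.20 on the IFN-beta arrays. The controls lay close together here, control 3 included. Ddit3 rose by 3.37 ± 0.17 (10.3-fold, adjusted p = 6.46e-05), the 105th highest difference, at chr10:126732518-126732821 (mm9). Chac1, which breaks down glutathione, was at 1.003, 0.91 and 1.61 on the controls and 3.11, 3.36 and 3.46 on the IFN-beta arrays. It rose by 2.14 ± 0.23 (4.41-fold, adjusted p = 0.000845), with no overlap between groups.

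Atf5, a bZIP factor translated under the same control as Atf4, was at 5.19, 5.20 and 5.04 on the controls and 6.54, 6.56 and 6.57 on the IFN-beta arrays. Control 3 was the lowest array for this gene, and the 3 IFN-beta arrays were nearly equal. Sesn2, a leucine sensor that restrains mTORC1, was at 0.83, 0.79 and 1.15 on the controls and 2.24, 2.44 and 2.26 on the IFN-beta arrays. Atf5 rose by 1.41 ± 0.15 (adjusted p = 0.000846) and Sesn2 by 1.39 ± 0.17 (adjusted p = 0.00171). Both genes separated the groups without overlap.

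Atf3, another bZIP factor of the stress response, was at 4.06, 3.94 and 4.52 on the controls and 4.85, 5.07 and 4.89 on the IFN-beta arrays. Ppp1r15a, which brings a phosphatase to eIF2 and so ends its phosphorylation, was at 2.81, 2.84 and 2.98 on the controls and 3.62, 3.58 and 3.65 on the IFN-beta arrays. Both rose by less than 2-fold, Atf3 by 0.76 ± 0.20 (adjusted p = 0.0346) and Ppp1r15a by 0.74 ± 0.15 (adjusted p = 0.0142). Ddit4, an inhibitor of mTORC1, was at 1.07, 0.86 and 0.86 on the controls and 1.93, 1.30 and 1.30 on the IFN-beta arrays. Its groups did not overlap, but IFN-beta array 1 stood above the other two, and the difference of 0.58 ± 0.22 did not pass (adjusted p = 0.0968).

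The 3 other regulators gave no call. Cebpg, a partner of ATF4 on DNA, ranged from 1.85 to 2.32 on the controls and from 1.87 to 2.14 on the IFN-beta arrays, with a difference of 0.030 ± 0.19 (adjusted p = 0.929). Eif4ebp1, which blocks cap-dependent translation, ranged from 4.37 to 5.11 and from 4.48 to 4.83, with a difference of -0.010 ± 0.24 (adjusted p = 0.982). For both genes control 3 was the highest of all 6 arrays. Nupr1, a small chromatin-bound stress protein, was at 5.35, 5.69 and 1.73 on the controls and 3.96, 4.03 and 4.32 on the IFN-beta arrays. The IFN-beta arrays lay between control 3, the lowest, and controls 1 and 2, and the difference was -0.15 ± 0.93 (adjusted p = 0.926) against all controls but 2.38 (adjusted p = 0.00369) against control 3. Across the arrays Nupr1 was high where the stroma markers summed to 9.32 and 9.53 and lowest where they summed to 1.07; the part of such cells in its level was not tested.

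**Figure D2:**
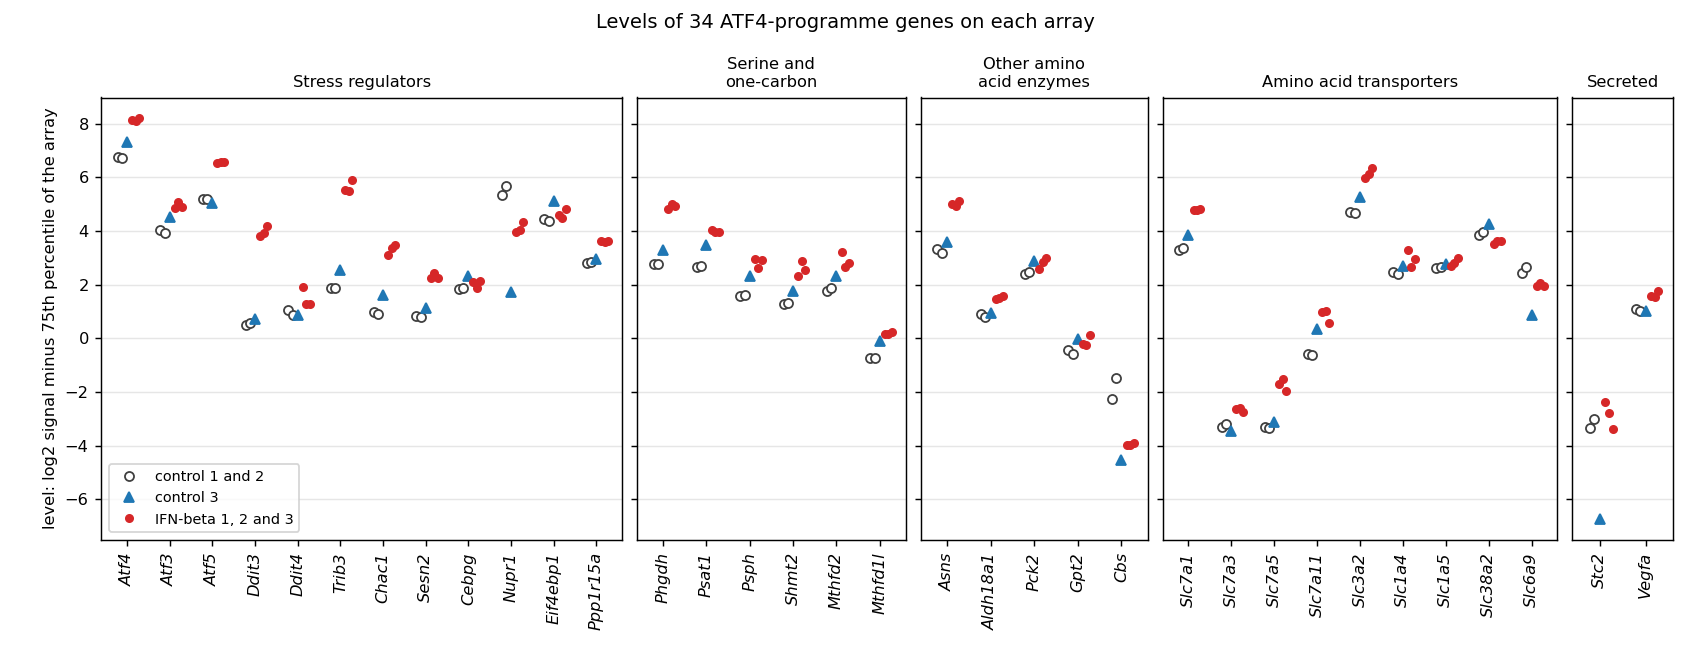
Level of the 34 genes tested (log2 signal minus the 75th percentile of the array, vertical axis) on each array, by role; open circles are controls 1 and 2, blue triangles control 3 and red points the 3 IFN-beta arrays. In the 21 genes that rose, every red point lies above control 3, which is itself part of the fit that called them. Nupr1 and Slc6a9 have the red points between control 3 and the other controls.

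Serine and one-carbon enzymes rose in 5 of the 6 genes tested, with 0 lower, where all genes gave 11.8% and 8.03%. The median difference was 1.02. In all 6 the IFN-beta arrays lay above every control, which was so in 23.4% of all genes. Phgdh, the first enzyme of serine synthesis, was at 2.79, 2.76 and 3.31 on the controls and 4.84, 5.02 and 4.94 on the IFN-beta arrays. It rose by 1.98 ± 0.20 (3.95-fold, adjusted p = 0.000660) and was the only one of the 6 that also passed against control 3 alone (1.62, adjusted p = 0.00766). The probe lies at chr3:98117098-98117157 (mm9). Psat1, the second enzyme of the route, was at 2.66, 2.68 and 3.48 on the controls and 4.03, 3.98 and 3.98 on the IFN-beta arrays. Psph, which takes the last step to serine, was at 1.59, 1.63 and 2.34 on the controls and 2.98, 2.62 and 2.92 on the IFN-beta arrays. In both, control 3 lay nearer to the IFN-beta arrays than to the other controls. Psat1 rose by 1.05 ± 0.24 (adjusted p = 0.0227) and Psph by 0.99 ± 0.24 (adjusted p = 0.0284).

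Among the mitochondrial folate genes 2 of the 3 tested rose, where 11.8% of all genes did. Shmt2, which moves a carbon from serine to folate, was at 1.28, 1.32 and 1.77 on the controls and 2.32, 2.89 and 2.56 on the IFN-beta arrays. Mthfd2, the next enzyme, was at 1.79, 1.86 and 2.32 on the controls and 3.21, 2.65 and 2.81 on the IFN-beta arrays. Mthfd1l, which releases formate, was at -0.72, -0.73 and -0.082 on the controls and 0.17, 0.17 and 0.22 on the IFN-beta arrays. For these 3 genes control 3 was the highest control, below all IFN-beta arrays. Shmt2 rose by 1.13 ± 0.22 (adjusted p = 0.0117) and Mthfd2 by 0.90 ± 0.22 (adjusted p = 0.0296), while the difference of Mthfd1l, 0.70 ± 0.21, did not pass (adjusted p = 0.0559). Aldh1l2, a mitochondrial folate dehydrogenase, was not tested: each of its 3 probes was well above background on controls 1 and 2 and on at most 1 IFN-beta array.

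Of the other amino acid enzymes 2 of 5 rose and 0 fell, where 11.8% and 8.03% of all genes did, and the median difference was 0.23. Asns, asparagine synthetase, was at 3.33, 3.18 and 3.61 on the controls and 5.02, 4.92 and 5.13 on the IFN-beta arrays. The groups were well apart, and Asns rose by 1.66 ± 0.18 (3.15-fold, adjusted p = 0.000870), with its probe at chr6:7625171-7625228 (mm9). Aldh18a1, the first enzyme of proline synthesis, was at 0.92, 0.79 and 0.95 on the controls and 1.48, 1.52 and 1.59 on the IFN-beta arrays. Its rise was 0.64 ± 0.15 (adjusted p = 0.0244). Pck2, the mitochondrial carboxykinase, ranged from 2.38 to 2.89 on the controls and from 2.60 to 2.99 on the IFN-beta arrays, and its difference of 0.23 ± 0.20 did not pass (adjusted p = 0.449). Nor did that of Gpt2, a mitochondrial alanine transaminase, at 0.22 ± 0.21 (adjusted p = 0.480). Both overlapped between groups.

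Cbs, the first enzyme of transsulfuration, passed the background limit on all 3 IFN-beta arrays but on only 2 of 3 controls, at -2.24, -1.48 and -4.53 on the controls and -3.97, -3.95 and -3.91 on the IFN-beta arrays. It was highest on controls 1 and 2, the arrays with the high stroma and erythroid marker sums, and its difference of -1.19 ± 0.68 did not pass (adjusted p = 0.244). Since it was not well above background on control 3, the IFN-beta arrays are given as at least 1.40-fold higher there, set against the lowest signal called above background on that array. Pycr1, the last enzyme of proline synthesis, and Cth, the next enzyme of transsulfuration, were well above background on controls 1 and 2 (by 1 of the 2 probes for Pycr1) and on at most 1 IFN-beta array, and were not tested. The part of other cells in these 3 genes was not tested.

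Transporters of amino acids rose in 5 of 9 genes, with 0 lower, where all genes gave 11.8% and 8.03%. Their median difference was 0.66. Slc7a5, the carrier of large neutral amino acids, was at -3.29, -3.35 and -3.11 on the controls and -1.70, -1.50 and -1.96 on the IFN-beta arrays. Its partner chain Slc3a2, which also pairs with Slc7a11, was at 4.73, 4.68 and 5.26 on the controls and 5.99, 6.12 and 6.35 on the IFN-beta arrays. Both separated the groups, and Slc7a5 rose by 1.53 ± 0.18 (2.88-fold, adjusted p = 0.00139) and Slc3a2 by 1.26 ± 0.21 (2.40-fold, adjusted p = 0.00668). Slc7a11, the cystine and glutamate exchanger, was at -0.58, -0.62 and 0.37 on the controls and 0.99, 1.01 and 0.58 on the IFN-beta arrays. Control 3 came close to the lowest IFN-beta array, and the rise was 1.13 ± 0.29 (adjusted p = 0.0334). The Slc7a5 probe lies at chr8:124430996-124431055, that of Slc3a2 at chr19:8782189-8782248 and that of Slc7a11 at chr3:50176047-50176106 (mm9).

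Slc7a1, a carrier of arginine and lysine, was at 3.31, 3.36 and 3.85 on the controls and 4.77, 4.78 and 4.82 on the IFN-beta arrays. Slc7a3, a related cationic carrier, was at -3.31, -3.19 and -3.44 on the controls and -2.62, -2.60 and -2.73 on the IFN-beta arrays. Neither gene overlapped between groups, and Slc7a1 rose by 1.29 ± 0.19 (adjusted p = 0.00399) and Slc7a3 by 0.66 ± 0.16 (adjusted p = 0.0251). Slc38a2, a sodium-coupled carrier of small neutral amino acids, was at 3.86, 3.98 and 4.28 on the controls and 3.52, 3.62 and 3.62 on the IFN-beta arrays. It was the 1 member whose IFN-beta arrays all lay below every control, but its difference of -0.45 ± 0.17 did not pass (adjusted p = 0.103). The same gene did pass as lower with quantile normalization (-0.61, adjusted p = 0.0143) and in the deposited value table (-0.57, adjusted p = 0.0209). A second, dimmer probe of Slc38a2 overlapped between groups. Its difference of -0.066 ± 0.29 did not pass in limma over all probes (adjusted p = 0.891).

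The neutral carriers Slc1a4 (0.44 ± 0.21, adjusted p = 0.175) and Slc1a5 (0.15 ± 0.16, adjusted p = 0.535) did not pass, and control 3 lay within the range of the IFN-beta arrays in both. Slc6a9, a glycine carrier, was at 2.43, 2.66 and 0.89 on the controls and 1.97, 2.06 and 1.94 on the IFN-beta arrays. Its IFN-beta arrays lay between control 3 and the other controls, as in Nupr1, with a difference of -0.0067 ± 0.43 (adjusted p = 0.993) against all controls and 1.10 (adjusted p = 0.0247) against control 3.

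The 2 secreted factors were Vegfa and Stc2. Vegfa, the vascular growth factor, was at 1.10, 1.04 and 1.04 on the controls and 1.57, 1.56 and 1.77 on the IFN-beta arrays and rose by 0.58 ± 0.15 (adjusted p = 0.0373), the smallest difference among the genes that rose. Stc2, a stanniocalcin, was well above background on controls 1 and 2 and on all IFN-beta arrays, at -3.34, -3.02 and -6.75 on the controls and -2.37, -2.79 and -3.37 on the IFN-beta arrays. Control 3 was far below the other 5 arrays, the difference of 1.52 ± 0.90 did not pass (adjusted p = 0.261), and against control 3 the IFN-beta arrays were at least 3.0-fold higher.

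Against control 3 alone, 12 of the 34 genes were called higher and 0 lower in a limma fit that takes its spread from the IFN-beta arrays and assumes that the lone control varies like them. Over all genes 5.22% were called higher and 4.34% lower, and at an unadjusted p under 0.05 the 1 member lower was again Slc38a2, where all genes gave 13.7%. The members called higher were Atf5, Ddit3, Trib3, Chac1, Sesn2, Nupr1, Phgdh, Asns, Slc7a1, Slc7a5, Slc6a9 and Stc2. Among them Stc2 was not well above background on control 3, so only a bound of at least 3.0-fold can be given there. The median difference of the 34 was 0.64 against control 3, where all genes had -0.10, and 0.33 with spike-in scaling. Control 3 lay below every IFN-beta array in 27 of the 34 genes, against 28.6% of all genes. It did so in each of the 21 that rose, but the fit that called them includes control 3, so this is no separate check. It lay above every IFN-beta array in 3 (Cebpg, Eif4ebp1 and Slc38a2), against 41.5%, and within their range in 4, against 29.8%. The difference was smaller against control 3 than against all controls in 18 of those 21. Control 3 was above both other controls in 26 of the 34 members, as it was in 73.8% of all genes.

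Without control 3, 22 members were called higher (33.1% of all genes) and 3 lower (15.1%), the latter being Nupr1, Cbs and Slc6a9. Leaving out another array instead gave 11 to 13 members higher and 0 lower, where 5.62% to 7.84% of all genes were higher. Of the 21 genes that rose, 11 kept the call whichever array was left out (adjusted p at most 0.0320): Atf4, Atf5, Ddit3, Trib3, Chac1, Sesn2, Phgdh, Asns, Slc7a1, Slc7a5 and Slc3a2. The other 10 lost it without at least 1 array (adjusted p up to 0.144), namely Atf3, Ppp1r15a, Psat1, Psph, Shmt2, Mthfd2, Aldh18a1, Slc7a3, Slc7a11 and Vegfa. For 8 of them, all but Ppp1r15a and Shmt2, leaving out any 1 of the 5 arrays other than control 3 ended the call. All 21 remained positive in each of the 19 alternatives.

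Array slide goes partly with treatment, since slide 1 held the 3 controls and IFN-beta array 1 and slide 2 held IFN-beta arrays 2 and 3. With the slide as a block, 8 members were higher, against 3.42% of all genes, and 0 lower (Atf5, Ddit3, Trib3, Chac1, Sesn2, Phgdh, Asns and Slc7a5). Within slide 1, where the lone IFN-beta array is assumed to vary like the controls, 2 members were higher (Ddit3 and Trib3), against 1.28% of all genes. The all-gene counts fell too, from 3866 to 1040 and 369 called in either direction. With controls 1 and 2 averaged as 1 sample, because they were so alike, 12 members were higher, against 5.99% of all genes.

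Most genes with several probes gave the same sign by each. Over the 52 probes tested, 32 were higher and 0 lower in the fit over all 29794 probes, where 13.7% were higher and 7.82% lower. Of the 15 genes with several probes tested, only Nupr1 had probes of opposite sign, at -0.15 ± 0.92 and 0.24 ± 0.18, and neither passed. Size differed more. The second Ddit3 probe, on another transcript, rose by 0.87 ± 0.15, where the brightest rose by 3.37 ± 0.17. Asns had a second probe at 0.20 ± 0.44 that did not pass. Averaging its probes took the Asns difference to 0.93 (adjusted p = 0.0505). Slc3a2 gave 1.26 ± 0.21, 2.23 ± 0.32 and 0.57 ± 0.19, of which the last did not pass, and Vegfa gave 0.58 ± 0.16, 0.76 ± 0.20 and 1.22 ± 0.17.

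**Figure D3:**
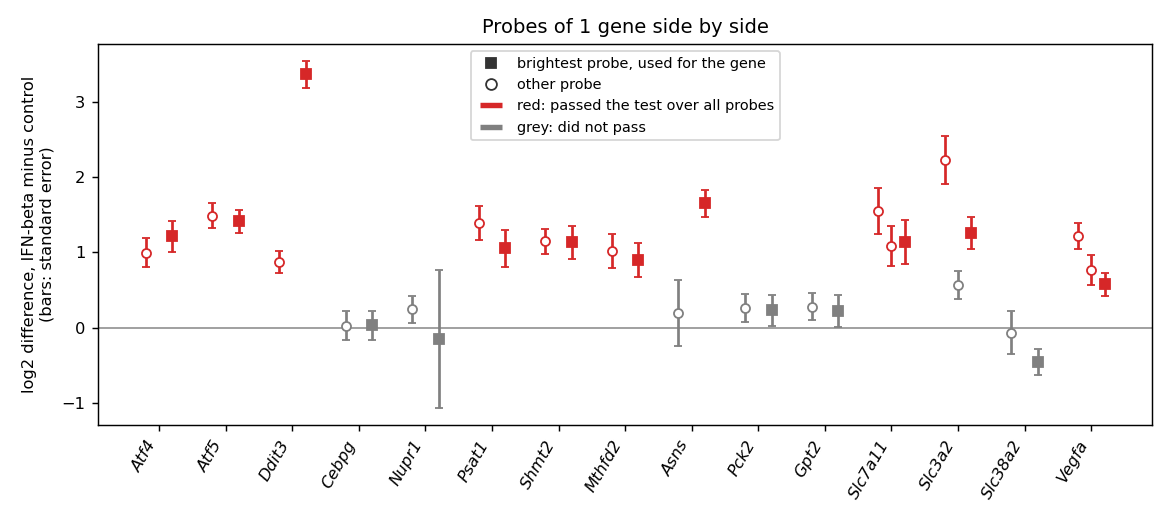
Log2 difference between IFN-beta and control (vertical axis, with the standard error of the fit) for every tested probe of the 15 genes with several; squares are the brightest probe, which stands for the gene, circles the others, and red marks probes that passed the test over all probes. Ddit3, Asns and Slc3a2 have the widest gaps between probes.

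Genes that act upstream of ATF4 were described from a separate list. It held 12 genes, for the eIF2 kinases, eIF2, its exchange factor eIF2B and 2 partners of these (Ppp1r15b, a phosphatase subunit, and Gcn1, which activates a kinase). Of the 12, 3 rose and 0 fell in limma, where 11.8% and 8.03% of all genes did. At an unadjusted limma p under 0.05, 7 were higher and 1 lower, where all genes gave 21.5% and 14.8%. The median difference of the 12 was 0.51, against 0.10 for all genes. Against control 3 alone the median was 0.27, where all genes had -0.10, and Eif2ak2 differed by 1.14. Control 3 lay above every IFN-beta array in 2 of the 12. Eif2ak2, the kinase that senses double-stranded RNA and is itself a known interferon target, rose by 1.65 ± 0.23 (adjusted p = 0.00316). Eif2b2, a subunit of the exchange factor, rose by 1.01 ± 0.20 (adjusted p = 0.0126), and Eif2s1, the phosphorylated subunit of eIF2, by 0.81 ± 0.20 (adjusted p = 0.0266). The arrays measure transcripts and say nothing of eIF2 phosphorylation or of ATF4 protein.

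A separate list held 20 further genes linked to ATF4, among them tRNA synthetases. Of the 19 tested, 8 were higher and 1 lower, where all genes gave 11.8% and 8.03%, and the median of the list was 0.63. Against control 3 alone the median was 0.40, where all genes had -0.10. Aars differed by 1.54 there, Stbd1 by -2.07 and Vldlr, a lipoprotein receptor named after its values were seen, by 1.21. Against all controls Vldlr was at -1.74 ± 1.09 and did not pass in limma (adjusted p = 0.286). It was at 1.13, 1.71 and -2.99 on the controls and -1.55, -1.72 and -2.08 on the IFN-beta arrays. Aars, which charges tRNA with alanine, was at 2.86, 2.75 and 2.92 on the controls and 4.12, 4.50 and 4.76 on the IFN-beta arrays and rose by 1.62 ± 0.20 (adjusted p = 0.00169). Sars, its counterpart for serine, rose by 1.07 ± 0.18 (adjusted p = 0.00681). Stbd1, a glycogen-binding protein, was the 1 that fell, by 3.72 ± 0.63 on the log2 scale (adjusted p = 0.00672), at 1.96, 2.58 and -0.20 on the controls and -2.29, -2.31 and -2.21 on the IFN-beta arrays. Controls 1 and 2, with the high stroma sums, were above control 3, which was itself above the IFN-beta arrays.

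Amino acid transporters outside the programme gave 4 higher and 0 lower of 14 tested, where all genes gave 11.8% and 8.03%. Their median difference was 0.036, below the 0.10 of all genes. With control 3 as the lone control their median was -0.18, where all genes had -0.10. Slc7a2 differed by 2.42 there, Slc15a3 by 1.32 and Slc43a2, named after its values were seen, by -0.91. Slc7a2, another cationic carrier, rose by 1.79 ± 0.28 (adjusted p = 0.00484), Slc15a3, a lysosomal carrier of histidine and peptides, by 1.58 ± 0.21 (adjusted p = 0.00225) and Slc7a8, a neutral carrier that pairs with Slc3a2, by 1.26 ± 0.24 (adjusted p = 0.0106). The remaining one, named after its values were seen, was Slc38a7 (1.02 ± 0.23, adjusted p = 0.0199). In the folate and methionine cycles outside the programme 2 of 14 rose and 0 fell, where 11.8% and 8.03% of all genes did. Their median difference was 0.44, and 0.093 against control 3 alone, where all genes had -0.10. Shmt1, the cytosolic relative of Shmt2, rose by 1.56 ± 0.32 (adjusted p = 0.0148). Aldh1l1, the cytosolic relative of Aldh1l2, was at -0.64 ± 0.19 and did not pass (adjusted p = 0.0504).

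Other cell markers moved along with the programme. The 7 basophil and mast cell markers all rose, where 11.8% of all genes did. Their summed levels were 2.63 to 3.40 on the controls and 5.89 to 6.44 on the IFN-beta arrays, and all 7 were above background on each array. Of 10 neutrophil markers 7 rose and 0 fell, where 11.8% and 8.03% of all genes did. Their summed levels were 8.93 to 9.35 on the controls and 9.73 to 10.03 on the IFN-beta arrays, and all 10 were above background on each array. Of 6 proliferation genes 0 passed in limma, and 1 was higher at an unadjusted p under 0.05, where all genes gave 21.5%. The summed level of the 12 stress regulators was 7.94 to 8.14 on the controls and 9.06 to 9.20 on the IFN-beta arrays, and that of the 9 transporters 6.11 to 6.48 and 6.97 to 7.17. The part of basophils, mast cells or neutrophils in these differences was not tested, and in such bulk samples fewer cells of a type and less RNA per cell cannot be told apart. In the comparison with control 3 alone, the stroma sum was 1.07 on that control and 1.63 to 1.87 on the IFN-beta arrays. The median difference from control 3 was 0.92 for the 8 stroma markers tested, where all genes had -0.10. It was 2.80 for the 7 basophil and mast cell markers, 0.99 for the 10 neutrophil markers and 1.75 for the 2 erythroid markers tested. For the 3 endothelial markers tested it was 1.33, and for the 4 T and NK cell markers tested 0.38. The 12 monocyte and macrophage markers had -0.26, the 6 proliferation genes -0.29 and the 4 B cell markers tested -0.021.

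**Figure D4:**
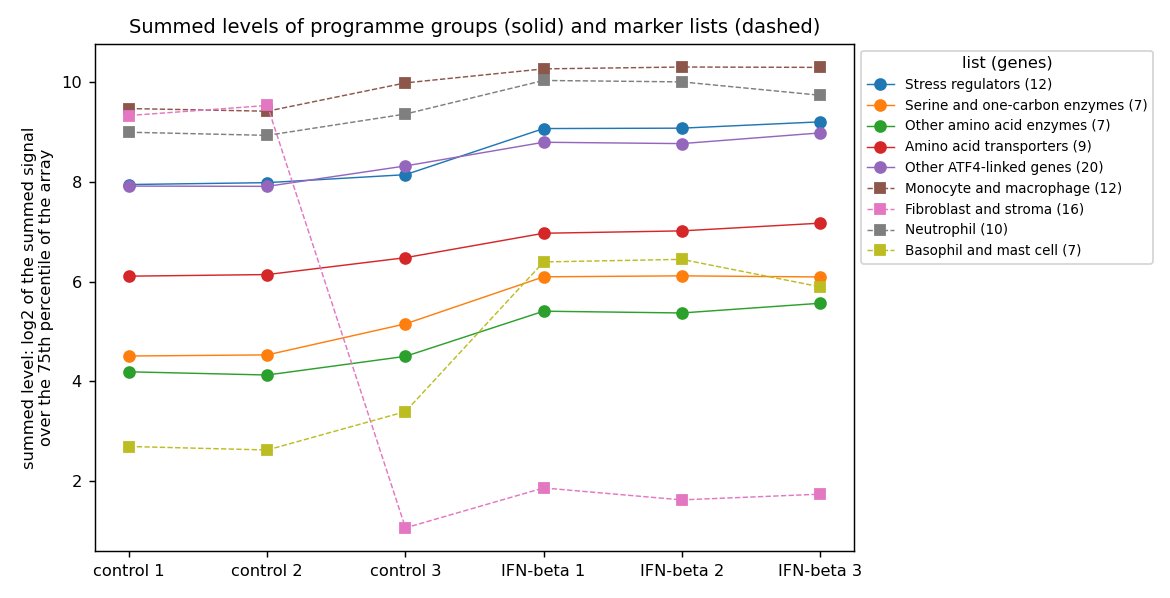
Summed level of each group (log2 of the summed signal over the 75th percentile of the array, vertical axis) on the 6 arrays (horizontal axis); circles with solid lines are groups of the programme and the further ATF4-linked genes, squares with dashed lines are cell type markers, and lines only join the points of a list. The 4 programme groups are highest on the IFN-beta arrays, as are the basophil and mast cell, the neutrophil, and the monocyte and macrophage sums. The stroma sum is high on controls 1 and 2 only.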

How the data were processed

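Each deposited scanner file lists, for every spot, the intensity that Agilent Feature Extraction 12.0.3.1 gave as processed signal, with background handled by the software and without scaling across arrays, per the file headers. A further deposited table has log2 values, whose normalization is not given in the sources used here; each column correlated with its own array at 0.996 to 0.999, the column medians were 4.81 to 4.83, and it served only as an alternative.

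From the processed signal, outlier spots were left out, the spots of a probe were averaged, and the 75th percentile of the array was subtracted on the log2 scale. Each array held 56605 non-control probes, of which 49.0% to 63.9% were well above background. Probe names came from RefSeq accessions (32994 probes) or the files (10224). Of 29794 probes tested, the brightest of a gene stood for it (19500 genes). The comparison of the 2 groups used limma 3.58.1 (R 4.3.3, package data.table, version 1.17.8) with Benjamini-Hochberg adjustment over all genes, a threshold of 0.05 and 4 residual degrees of freedom plus the prior. On simulated data with 200 of 19500 genes shifted by 2 (log2) in this comparison, 82.5% were recovered, with a mean estimate of 1.96, and 9 unchanged genes were called. A summed level is the log2 of the summed signal of a list over the 75th percentile of the array.

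The members, the lists of related genes and markers, and the tests were chosen with earlier results of these data known. All 37 members are named, with values per array where a gene passed or its groups did not overlap, and up to 3 genes of each related list, those with the lowest p. A gene that this rule names is not reported here. Alternatives were quantile normalization, spike-in scaling, normexp background correction (offset 50), the deposited table, no filter or a filter on all 6 arrays, the mean of all probes, eBayes with trend and robust, array weights, slide as a block or slide 1 alone, the replicate block, controls 1 and 2 as 1 sample, and each array left out. The gene set tested was held fixed except where the filter was the choice. The first estimate of the array weights did not converge, and another estimator of limma (gene by gene) was used after that was seen.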

Additional observations from a re-analysis of the deposited data

How the results depend on the processing

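The higher direction of the 21 members that rose held in all 19 alternatives, and Ddit3 and Trib3 kept the call in each. The count of members higher, 21, was 12 with spike-in scaling (7 probes, so imprecise), 11 with no filter, 8 with the slide as a block, 2 within slide 1 and 12 with controls 1 and 2 as 1 sample, and 11 to 22 when 1 array was left out. It was 25 with array weights, where 39.7% of all genes were higher. Those weights were 0.102 for control 3, against 6.68 and 3.04 for controls 1 and 2. The count was 23 with normexp (19.7%) and 22 with the filter on all 6 arrays (14%). It was 20 or 21 with the mean of probes, quantile normalization, the deposited table, or trend and robust (12.5% to 14%). Mthfd1l passed as higher with normexp, the filter on all 6 arrays, trend and robust, array weights and without control 3. Stc2 also passed as higher with normexp (0.74, adjusted p = 0.014 in limma), and Ddit4, Slc1a4 and Pck2 passed as higher in 1 alternative each. Members lower, 0, were 1 with quantile normalization, normexp or the deposited table (Slc38a2 in each), where 7.94% to 8.73% of all genes were lower. They were 3 with array weights (20.3% of all genes) and 0 to 3 with 1 array left out (3.69% to 15.1%). Genes called in all, 3866, were 1697 with no filter, 11700 with array weights, 1040 with the slide block, 369 within slide 1, 1993 with controls 1 and 2 as 1 sample, and 1830 to 9390 with 1 array left out, the most without control 3. The median of the members was 0.71 to 0.94 in every alternative; against control 3 it moved from 0.64 to 0.33 with spike-in scaling. The median of all genes was 0.10, -0.019 with spike-in scaling and 0.31 with no filter, and the share of calls that were higher was 59.5%, 39.7% with spike-in scaling and 69.9% with normexp. Cebpg, at 0.030, turned to -0.040 with quantile normalization, -0.089 with spike-in scaling, -0.12 with normexp, -0.014 in the deposited table and -0.046 with controls 1 and 2 as 1 sample, and lay between -0.049 and 0.18 with 1 array left out. Nupr1, at -0.15, turned to 0.046 with the mean of its probes, 0.48 with controls 1 and 2 as 1 sample, and lay between -1.42 (without control 3, where it passed as lower) and 0.57 with 1 array left out. Eif4ebp1, at -0.010, turned to 0.19 with array weights and lay between -0.15 and 0.22 with 1 array left out. Slc6a9, at -0.0067, turned to 0.27 with controls 1 and 2 as 1 sample and lay between -0.56 (without control 3, passing as lower) and 0.33 with 1 array left out. None of these 4 passed with the turned sign, and the cause was not tested. With the replicate number as a block 16 members were higher, where 9.81% of all genes were, and 3271 genes were called. Same-numbered samples correlated at 0.022 to 0.073 in their deviations, below the 0.1 asked for. The numbers were therefore not taken as a pairing, though all 6 samples correlated best with their own number. Dim signal limits Slc7a3, Slc7a5, Stc2 and Cbs, and 3 samples a group, with 1 control apart, limit every call.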

Other observations

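Other stress responses were set beside the ATF4 programme in the same fit. Of 17 genes of the XBP1 and ATF6 arm of the unfolded protein response, 6 rose and 1 fell, where 11.8% and 8.03% of all genes did. Their median difference was 0.48, against 0.10 for all genes. Hyou1, a chaperone of the endoplasmic reticulum, rose by 1.15 ± 0.16 (adjusted p = 0.00258 in limma), Creld2, a secretory-pathway stress protein, by 0.81 ± 0.15 (adjusted p = 0.00989) and Ern1, which encodes the sensor IRE1, by 0.83 ± 0.17 (adjusted p = 0.0130). Dnajc3, a co-chaperone that restrains eIF2 kinases, was the 1 that fell, by 0.63 ± 0.15 on the log2 scale (adjusted p = 0.0257), and was named after its values were seen, as were Slc48a1, Nqo1 and Pdk1. Against control 3 alone the median of the 17 was 0.32, where all genes had -0.10.

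Of 12 targets and regulators of NRF2, the factor of the oxidant response, 3 rose and 2 fell, where 11.8% and 8.03% of all genes did. The median of these 12 was 0.24. Against control 3 alone their median was -0.20, where all genes had -0.10, and Nqo1 differed by -1.13. Those with the lowest p were Osgin1, a growth inhibitor (1.09 ± 0.22, adjusted p = 0.0132), Keap1, which holds NRF2 back (0.73 ± 0.18, adjusted p = 0.0305), and Gsr, glutathione reductase (0.83 ± 0.22, adjusted p = 0.0343). Those that fell were Slc48a1, a haem transporter, by 0.66 ± 0.17 (adjusted p = 0.0356) and Nqo1, a quinone reductase, by 0.74 ± 0.20 (adjusted p = 0.0419). Of 15 hypoxia-inducible genes 1 rose and 3 fell, where 11.8% and 8.03% of all genes did. Their median was -0.26, and -0.38 against control 3 alone. Pfkfb3, an activator of glycolysis, was at 2.78, 2.69 and 2.91 on the controls and 3.64, 3.64 and 3.74 on the IFN-beta arrays and rose by 0.88 ± 0.15 (adjusted p = 0.00779). Egln1, an oxygen-sensing prolyl hydroxylase, was at 3.55, 3.57 and 3.57 on the controls and 2.92, 2.90 and 3.03 on the IFN-beta arrays and fell by 0.62 ± 0.15 on the log2 scale (adjusted p = 0.0256). Ankrd37 fell by 0.89 ± 0.21 (adjusted p = 0.0239) and Pdk1, a kinase that holds back pyruvate oxidation, by 0.996 ± 0.26 (adjusted p = 0.0363).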
